A study of Drosophila melanogaster with 14 samples.

Results

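Insulin and target of rapamycin (TOR) signalling was followed through 9 of its genes, across 14 RNA-seq libraries of type II neural stem cells from the Drosophila melanogaster larval brain. The genes were taken from the raw count table by symbol, and all 9 were found among 17868 genes. They are the ligand Ilp8, the receptor InR, its adaptor chico, the kinase Akt, the transcription factor foxo, the kinase Tor with its partner raptor, the kinase S6k and the stress protein Sesn. A further 66 genes, grouped by role in the same pathway, give the context.

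Insulin-like peptides bind the receptor InR, which signals through chico and phosphatidylinositol 3-kinase to Akt. Akt keeps the transcription factor foxo out of the nucleus and relieves the Tsc complex's block on the small GTPase Rheb, which switches on TOR complex 1, in which raptor holds the substrates of Tor. In the larval brain, insulin signalling from glia wakes quiescent neural stem cells, and TOR activity supports their growth. Ilp8 is a relaxin-like peptide that damaged or tumorous imaginal discs secrete to delay metamorphosis through the receptor Lgr3.

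The study compared 3 libraries of GAF RNAi with 3 of their own controls, 2 of HDAC1 RNAi with 2 of theirs, and 2 of Osa overexpression with 2 of theirs. GAF is a DNA-binding protein encoded by Trl, HDAC1 is a histone deacetylase and Osa is a subunit of the Brahma chromatin remodeller. The labels give every control as wild type and name no driver, RNAi line, age or sex, so what limits each group as a model is not known beyond the 1000 to 2000 cells behind a library. The series text speaks of an Osa knockdown where the sample labels say overexpression. The labels do not state whether replicates came from different animals. The p-values therefore reflect library-to-library spread, part or all of which may be technical.

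The table held 42372121 to 51505597 counts per library in the GAF experiment, 34124750 to 35648398 in the HDAC1 experiment and 31788351 to 34062172 in the Osa experiment. All 6 neural stem cell markers (dpn, wor, mira, grh, klu and insc) had counts in every group. The gene osa stood at 299 and 288 CPM (counts scaled to a common library size within an experiment) in Osa overexpression libraries, against 146 and 150 CPM in their controls. HDAC1 stood at 59.7 and 34.7 CPM in HDAC1 RNAi libraries, against 70.9 and 79.2 CPM in their controls, a log2 fold change of -0.67 that missed the threshold (edgeR adjusted p = 0.576). Trl stood at 5.18, 5.96 and 4.48 CPM in libraries labelled GAF RNAi, against 6.29, 5.50 and 4.71 CPM in their controls, and these overlap. As 77.8% of the exonic bases of Trl are shared with neighbours on its strand, its counts check that label only weakly. The 2 HDAC1 RNAi libraries stood apart from each other. For some of the genes named from them, log2 fold changes are therefore also given with a library left out.

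The 9 genes lie on 5 chromosome arms of the BDGP6 (dm6) assembly, with exonic lengths taken over all annotated transcripts. InR (FBgn0283499) spans 3R:21570248-21619321 on the minus strand with 11367 exonic bases, and foxo (FBgn0038197) and Akt (FBgn0010379, listed as Akt1 in the table) lie on the same arm at 14056945-14087978 and 16099228-16105670, both on the plus strand. S6k (FBgn0283472) and Ilp8 (FBgn0036690) lie on the minus strand of 3L at 5797549-5810931 and 17029812-17032080, with 4885 and 867 exonic bases. On 2L, chico (FBgn0024248) spans 10242512-10247078 on the minus strand and Tor (FBgn0021796) spans 13004480-13013197 on the plus strand. An antisense RNA shares 10.6% of the exonic bases of chico, and libraries were unstranded, so the 2 RNAs cannot be told apart. The gene raptor (FBgn0029840, X:6082634-6090201, minus strand) has Mipp2 on its own strand over 23.5% of its exonic bases, and Sesn (FBgn0034897, 2R:23713900-23734846, plus strand) shares 65.1% with CG46429. The sources used here do not say to which gene such reads were assigned, which limits the counts of raptor and Sesn.

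Per kilobase of exon, S6k, InR, Akt, chico and Ilp8 were the most abundant members in the GAF and Osa experiments, and raptor and Sesn were the lowest in every group. In the GAF controls, Ilp8 averaged 44.6 ± 14.2 CPM per kilobase, S6k 39.3 ± 1.27, InR 27.8 ± 8.19, chico 25.7 ± 4.15 and Akt 18.9 ± 1.38 (SD, n = 3). Below them stood foxo at 8.91 ± 1.46, Tor at 1.70 ± 0.29 and raptor at 0.073 ± 0.044 CPM per kilobase (SD, n = 3), while Sesn had no count in any GAF control. Ilp8 and S6k overlapped in that order, as did InR and chico. In the Osa controls S6k led with 40.3 ± 0.34 CPM per kilobase (SD, n = 2), and the libraries of Akt, InR, Ilp8 and chico overlapped between neighbours at means of 17.0 to 23.4. The HDAC1 controls kept S6k first, at 28.02 ± 0.28, and InR second, at 23.2 ± 2.25 CPM per kilobase (SD, n = 2). There, chico averaged 1.59 ± 0.14 and Akt 2.94 ± 0.64 CPM per kilobase, far below both other control groups. CPM were normalized within each experiment, so experiment and control level cannot be told apart.

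**Figure D1:**
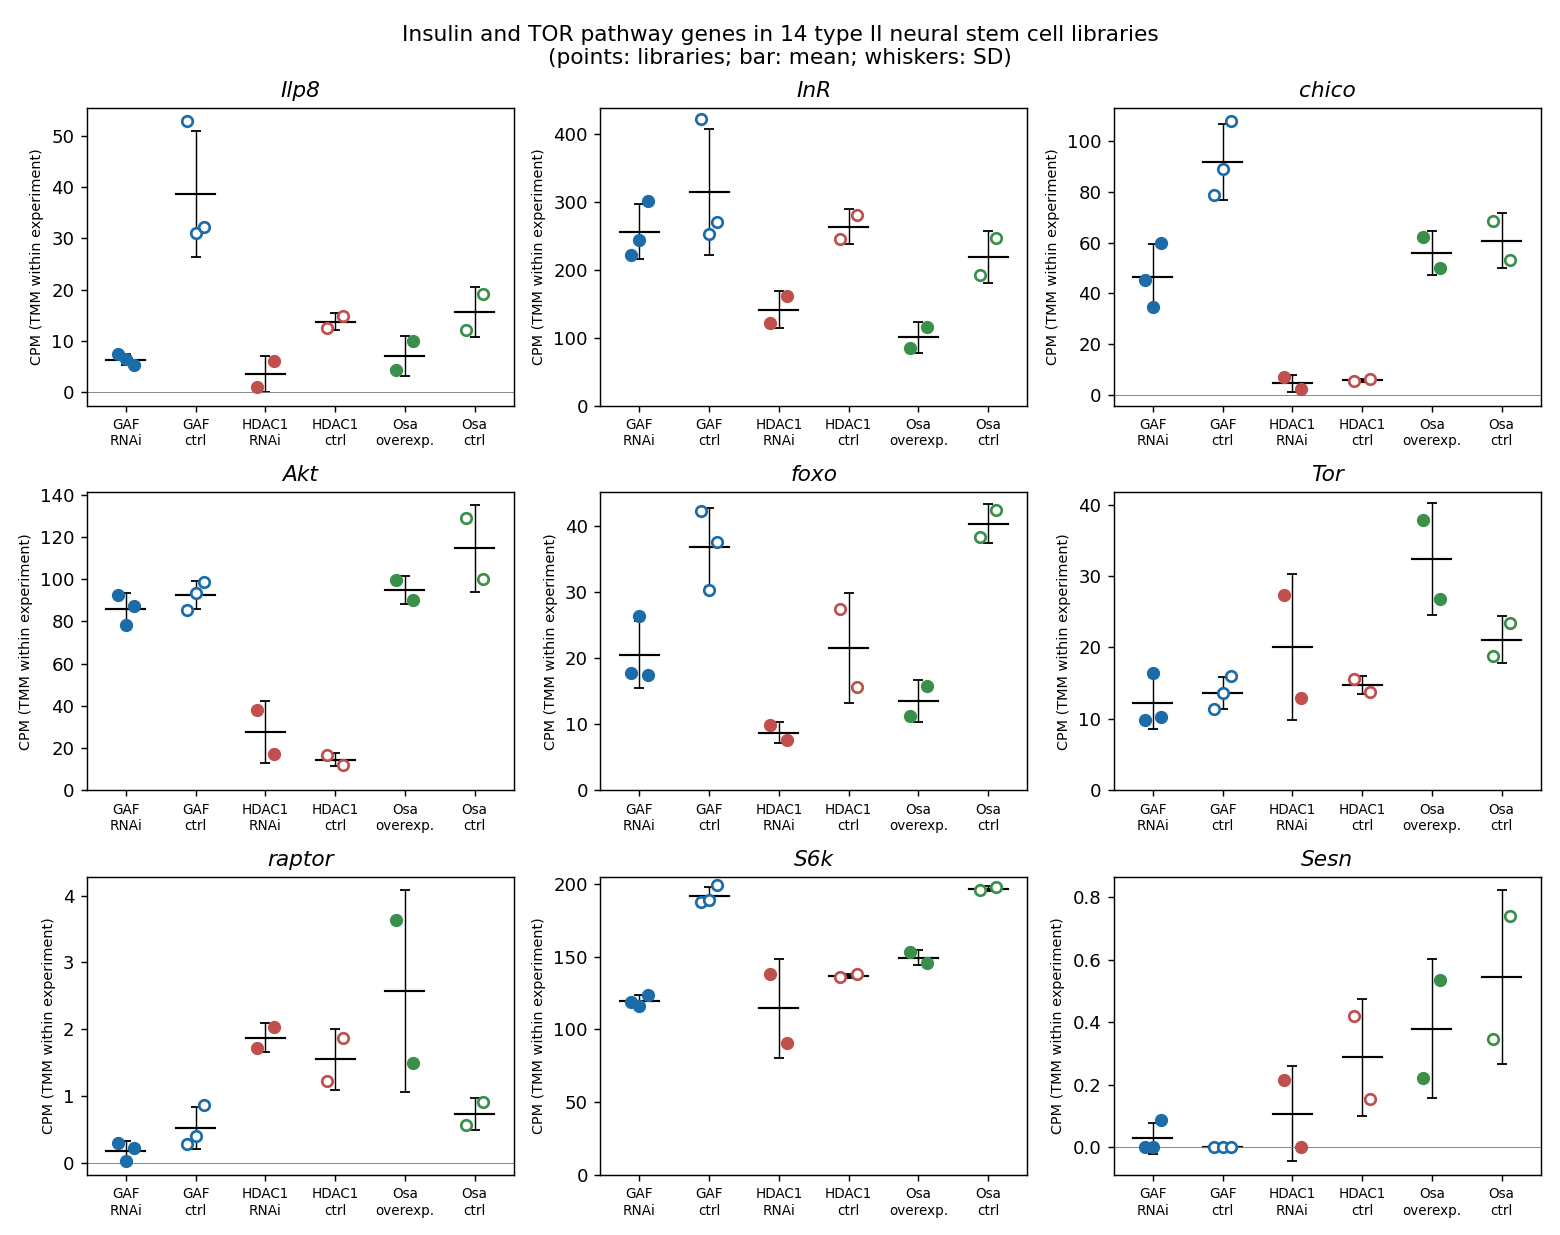
Normalized counts (CPM, vertical axis) of the 9 genes in all 14 libraries, with filled points for RNAi or overexpression libraries, open points for their own controls, bars at the mean and whiskers at 1 SD. Ilp8 and foxo lie below every control of their own experiment in all 3 experiments.

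GAF RNAi libraries had less Ilp8, chico, foxo and S6k RNA than their controls, while InR, Akt and Tor overlapped between the groups. Of the 8 members tested, 4 passed an adjusted p of 0.05 in edgeR's quasi-likelihood test, all of them lower, and the same 4 had an unadjusted p under 0.05. Over all 9055 genes tested, 28.4% were called in either direction, 15.9% were called lower and 40.1% had an unadjusted p under 0.05. Every GAF RNAi library lay below every control for these 4 members, an order found in 22.2% of genes tested, and none lay above, as 22.0% of genes did. The median log2 fold change of the 8 members was -0.76, beside 0.0022 over all genes tested.

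Ilp8 stood at 7.42, 6.41 and 5.17 CPM in GAF RNAi libraries, against 52.9, 31.0 and 32.2 CPM in GAF controls. The groups do not overlap, and the highest RNAi library lay far below the lowest control. The mean was 6.11-fold lower, with a log2 fold change of -2.61 ± 0.24 (SE; edgeR adjusted p = 6.9e-06). In the same libraries, GAF RNAi and control, Lgr3 stayed at or below 0.61 CPM, and its difference did not pass the test (adjusted p = 0.305).

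InR, the single insulin receptor of the fly, stood at 223, 245 and 302 CPM in GAF RNAi libraries, against 422, 253 and 271 CPM in GAF controls. Only the first control lies above all RNAi libraries, and the log2 fold change of -0.30 ± 0.19 did not pass the test (SE; edgeR adjusted p = 0.279). The adaptor chico, which links InR to phosphatidylinositol 3-kinase, stood at 45.4, 34.6 and 59.96 CPM in GAF RNAi libraries, against 78.8, 89.0 and 108 CPM in controls. Every RNAi library was below every control, and the log2 fold change was -0.98 ± 0.19 (SE; edgeR adjusted p = 0.0029). Akt, the kinase below chico, stood at 92.7, 78.4 and 87.1 CPM in RNAi libraries, against 85.2, 93.4 and 98.6 CPM in controls. These overlap, and the log2 fold change was -0.10 ± 0.12 (SE; adjusted p = 0.573).

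The transcription factor foxo, which Akt restrains, stood at 17.8, 26.5 and 17.5 CPM in GAF RNAi libraries, against 42.4, 30.4 and 37.6 CPM in controls. The groups do not overlap, though the second RNAi library came close to the lowest control. The log2 fold change was -0.84 ± 0.20 (SE; edgeR adjusted p = 0.0071). S6k, the kinase that TOR complex 1 activates and that phosphorylates RpS6, stood at 119, 116 and 124 CPM in RNAi libraries, against 188, 189 and 199 CPM in controls. Its groups were narrow and well apart, and the mean was 1.605-fold lower (log2 fold change -0.68 ± 0.11, SE; edgeR adjusted p = 0.00068).

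Tor stood at 9.86, 16.3 and 10.3 CPM in GAF RNAi libraries, against 11.3, 13.6 and 15.9 CPM in controls, and the groups overlap. Its partner raptor had 13, 1 and 10 counts in RNAi libraries, against 12, 21 and 42 counts in controls, a log2 fold change of -1.55 ± 0.85 that did not pass the test (SE; edgeR adjusted p = 0.195). Sesn, which restrains TOR complex 1 under stress, had 0, 0 and 4 counts in RNAi libraries and none in the controls, and it was not tested. A floor of 3 counts came to 0.057 to 0.071 CPM in these libraries.

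Markers of other cells moved in the same libraries. All 4 intermediate progenitor markers and 6 of 7 neuron markers rose in GAF RNAi libraries; the summed progenitor markers reached 110 to 128 CPM, against 38.2 to 59.3 CPM in controls, and the summed neuron markers 120 to 130.01 CPM, against 26.9 to 51.46 CPM. Summed glia markers stood at 138 to 168 CPM, against 592 to 698 CPM in controls, and 3 of the 6 rose and 1 fell. That one, nrv2, averaged 45.9 ± 3.36 CPM in GAF RNAi libraries and 598 ± 53.0 CPM in controls (SD, n = 3 each). The genes listed as imaginal disc markers (vg, ap and nub) summed to 6.91 to 16.7 CPM, against 1.51 to 4.46 CPM in controls, with 2 of 3 called higher. Whether their RNA came from disc cells was not tested. None of these markers was at 0 in either group, and their part in the results was not tested. In bulk RNA, fewer cells of a type and less RNA per cell cannot be told apart. The 4 calls remained, for the same genes, with each of the 6 libraries left out in turn. With all 14 libraries in 1 fit, chico (edgeR adjusted p = 0.0726) and foxo (adjusted p = 0.0510) were no longer called, and the cause was not tested.

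**Figure D2:**
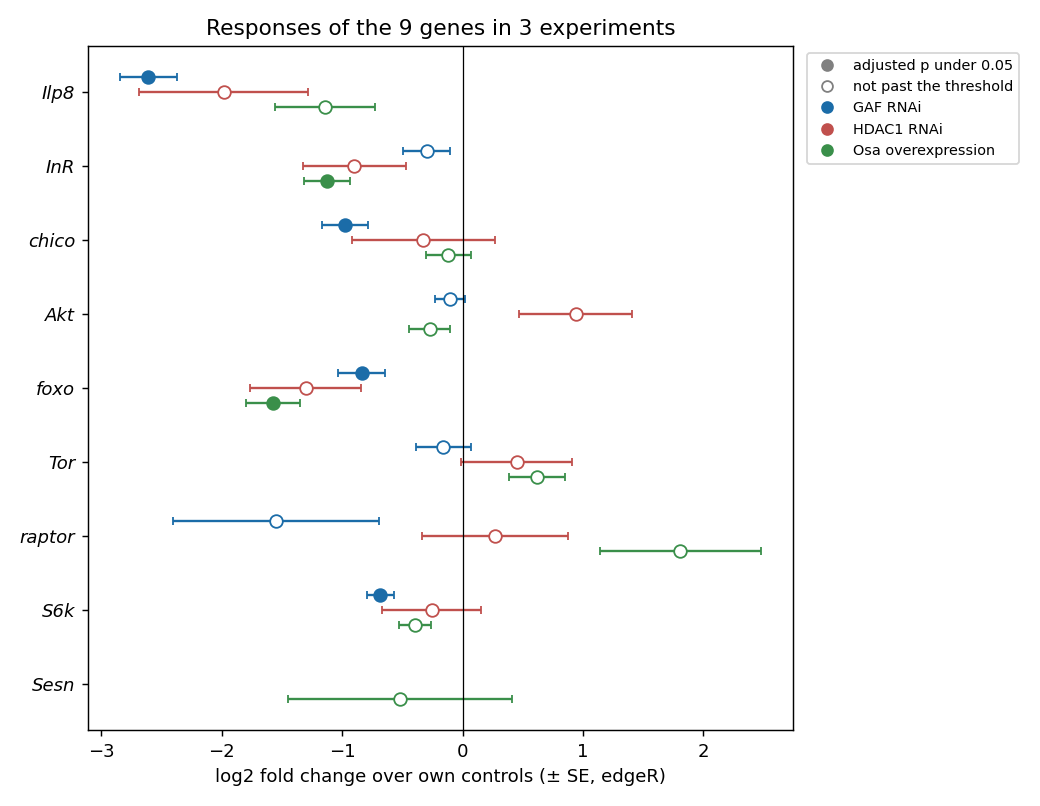
Log2 fold change over own controls (horizontal axis) with its SE from edgeR for each gene, GAF RNAi above HDAC1 RNAi above Osa overexpression, filled where the adjusted p is under 0.05. Ilp8, InR, chico, foxo and S6k lie left of 0 in all 3 experiments, though chico turns positive in HDAC1 RNAi and Osa overexpression and S6k in HDAC1 RNAi with library size alone, and 6 of the points are filled.

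Osa overexpression libraries had less foxo and InR RNA than their controls. Of 9 members tested, 2 were called, both lower, while 21.1% of 9156 genes were called in either direction, 12.2% lower and 8.86% higher. At an unadjusted p under 0.05 stood 6 members, 2 higher and 4 lower, and 36.8% of all genes. The members' median log2 fold change was -0.40, beside 0.048 over all genes tested. With library size alone as the scaling, the median of all genes moved up by 0.28 on the log2 scale, and the called genes split into 1963 higher and 538 lower in place of 811 higher and 1118 lower.

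In the Osa experiment foxo stood at 11.3 and 15.8 CPM in overexpression libraries, against 38.3 and 42.5 CPM in controls. Both overexpression libraries were far below both controls, a 2.98-fold lower mean with a log2 fold change of -1.58 ± 0.23 (SE; edgeR adjusted p = 0.0037). InR stood at 84.5 and 117 CPM in overexpression libraries, against 193 and 247 CPM in controls. Here too the groups do not overlap, and the mean was 2.19-fold lower (log2 fold change -1.13 ± 0.19, SE; edgeR adjusted p = 0.0065). Both calls remained with each of the 4 libraries left out in turn and with library size alone.

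The other members of the Osa experiment did not pass the test, though 5 had groups that do not overlap. Ilp8 stood at 4.33 and 9.85 CPM in overexpression libraries, against 12.2 and 19.1 CPM in controls (log2 fold change -1.14 ± 0.41, SE; edgeR adjusted p = 0.0807). S6k stood at 153 and 146 CPM, against 196 and 198 CPM in controls (log2 fold change -0.40 ± 0.13, SE; edgeR adjusted p = 0.0615). Akt stood at 99.5 and 90.0 CPM in overexpression libraries, against 129 and 100.2 CPM in controls (log2 fold change -0.27 ± 0.17, SE; edgeR adjusted p = 0.268). Together with foxo and InR, these make 5 of 9 members with both overexpression libraries below both controls, where 32.1% of genes tested had that order.

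Both TOR complex 1 members pointed the other way. Tor stood at 37.9 and 26.8 CPM in Osa overexpression libraries, against 18.7 and 23.4 CPM in controls (log2 fold change 0.62 ± 0.23, SE; edgeR adjusted p = 0.0835). The gene raptor had 131 and 53 counts in overexpression libraries, against 16 and 28 counts in controls (log2 fold change 1.81 ± 0.67, SE; edgeR adjusted p = 0.0793). Both overexpression libraries were above both controls for these 2 members, as for 33.7% of genes tested. Values for chico were 62.3 and 49.8 CPM, against 68.6 and 53.1 CPM in controls, and for Sesn 8 and 19 counts, against 10 and 23, and both overlap.

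Several of these members lie close to the threshold. With library size alone, Tor (log2 fold change 0.90, edgeR adjusted p = 0.0289) and raptor (2.09, adjusted p = 0.0492) were called higher, and the small falls of chico and Akt became rises of 0.16 and 0.0031 on the log2 scale. Without the second overexpression library, the log2 fold changes of Tor, raptor, S6k and Ilp8 were 0.83, 2.29, -0.38 and -1.87. Without the first, that of S6k was -0.43. The sign of chico turned without the second overexpression library (0.016) or without the first control (0.079), and that of Sesn without the second control (0.12).

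In the Osa experiment all 4 intermediate progenitor markers rose, and their sum reached 451 to 671 CPM in overexpression libraries, against 140 to 163 CPM in controls. Summed neuron markers stood at 737 to 853 CPM, against 526 to 642 CPM in controls, with 2 of 7 called higher. Summed neural stem cell markers stood at 897 to 918 CPM, against 1303 to 1448 CPM in controls, with 2 of 6 called lower. Summed type II lineage markers stood at 321 to 336 CPM, against 487 to 508 CPM in controls, with 2 of 3 called higher and 1 lower. Summed imaginal disc markers (vg, ap and nub) stood at 50.7 to 61.2 CPM, against 17.4 to 19.8 CPM in controls, with 1 of 3 called higher. No marker of these lists was at 0 in either group, and their part in the members' values was not tested.

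HDAC1 RNAi libraries gave no member past the threshold, and both replicates differed widely. Of 8 members tested, 0 were called by edgeR, 2 had an unadjusted p under 0.05 (foxo and Ilp8), and DESeq2 and limma-voom called 0. With no filter on low counts, edgeR called Ilp8 (log2 fold change -1.95, adjusted p = 0.0240) and 309 genes in all. With a replicate block it called Ilp8 (-2.44, adjusted p = 0.0081) and 241 genes in all. Without either change, 0.0971% of all 10299 genes tested were called and 11.9% had an unadjusted p under 0.05. On simulated counts with the spread of this experiment, drawn once with few genes changed, the test called 0% of genes changed 2-fold. It called 39% of those changed 4-fold. A 2-fold change can thus be missed at this spread. How often depends on the share of changed genes, which is not known for these data.

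Ilp8 stood at 1.008 and 5.96 CPM in HDAC1 RNAi libraries, against 12.5 and 14.8 CPM in HDAC1 controls. Both RNAi libraries were below both controls, with a log2 fold change of -1.98 ± 0.70 (SE; edgeR adjusted p = 0.295). The same order held for foxo, at 9.83 and 7.64 CPM in RNAi libraries, against 27.5 and 15.7 CPM in controls (log2 fold change -1.30 ± 0.46, SE; edgeR adjusted p = 0.290). InR stood at 122 and 161 CPM, against 246 and 282 CPM in controls (log2 fold change -0.90 ± 0.43, SE; edgeR adjusted p = 0.450). These 3 of 8 members lay below both controls in both RNAi libraries, where 20.5% of genes tested did.

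Akt stood at 38.0 and 17.1 CPM in HDAC1 RNAi libraries, against 16.6 and 12.2 CPM in controls. The second RNAi library lay just above the higher control, an order of both libraries over both controls found in 22.6% of genes tested, and the log2 fold change of 0.94 ± 0.47 did not pass the test (SE; edgeR adjusted p = 0.481). Tor stood at 27.3 and 12.9 CPM, against 15.6 and 13.8 CPM in controls, and S6k at 138 and 90.5 CPM, against 136 and 138 CPM in controls. The low adaptor chico stood at 6.95 and 2.09 CPM, against 5.33 and 6.05 CPM in controls. For these 3 members the RNAi replicates lie on either side of the controls. For S6k the first RNAi library was only just above the higher control, at 138.4 against 137.8 CPM. The gene raptor stood at 1.72 and 2.03 CPM, against 1.23 and 1.87 CPM in controls, which overlap, and Sesn had 10 and 0 counts, against 13 and 5, too few to be tested. Without the first RNAi library the log2 fold change of raptor was 0.41 (edgeR adjusted p = 0.726), and without the second it was 0.16 (adjusted p = 0.879).

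Leaving out either HDAC1 RNAi library changed the picture. Without the first, log2 fold changes were -0.69 for InR, -1.42 for chico, -1.47 for foxo and -1.17 for Ilp8. Without the second, they were -1.10 for InR, -1.13 for foxo, -3.75 for Ilp8, 1.41 for Akt and 0.90 for Tor. The members listed for each fit are those that passed the threshold in it. In the second RNAi library the log2 ratio of Akt to the control mean was only 0.25. InR, foxo and Ilp8 were thus lower against either RNAi library alone, but both fits use the same 2 controls. Such a fit assumes that the lone library varies as the controls do. Calls over all genes were far more common in these fits too, so only effect sizes are given. The signs of chico (0.30) and S6k (0.025) turned without the second library, and that of Tor (-0.17) turned without the first. With library size alone the median of all genes moved up by 0.27 on the log2 scale, and chico (0.067) and S6k (0.062) turned positive.

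Cell type markers moved in the HDAC1 experiment too, although none was called. Summed neural stem cell markers stood at 276 to 279 CPM in HDAC1 RNAi libraries, against 744 to 749 CPM in controls, and summed neuron markers at 619 to 747 CPM, against 235 to 294 CPM. Summed type II lineage markers stood at 146 to 279 CPM, against 610 to 637 CPM in controls, and summed glia markers at 248 to 583 CPM, against 225 to 336 CPM. Summed intermediate progenitor markers stood at 61.2 to 153 CPM, against 24.1 to 44.9 CPM in controls. Summed imaginal disc markers stood at 13.1 to 37.6 CPM, against 9.64 to 12.4 CPM in controls, and summed muscle markers at 7.59 to 12.9 CPM, against 20.5 to 22.9 CPM. Each of these ranges spans the 2 libraries of a group. No marker of these 7 lists was at 0 in either group, and their part in the members' values was not tested.

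**Figure D3:**
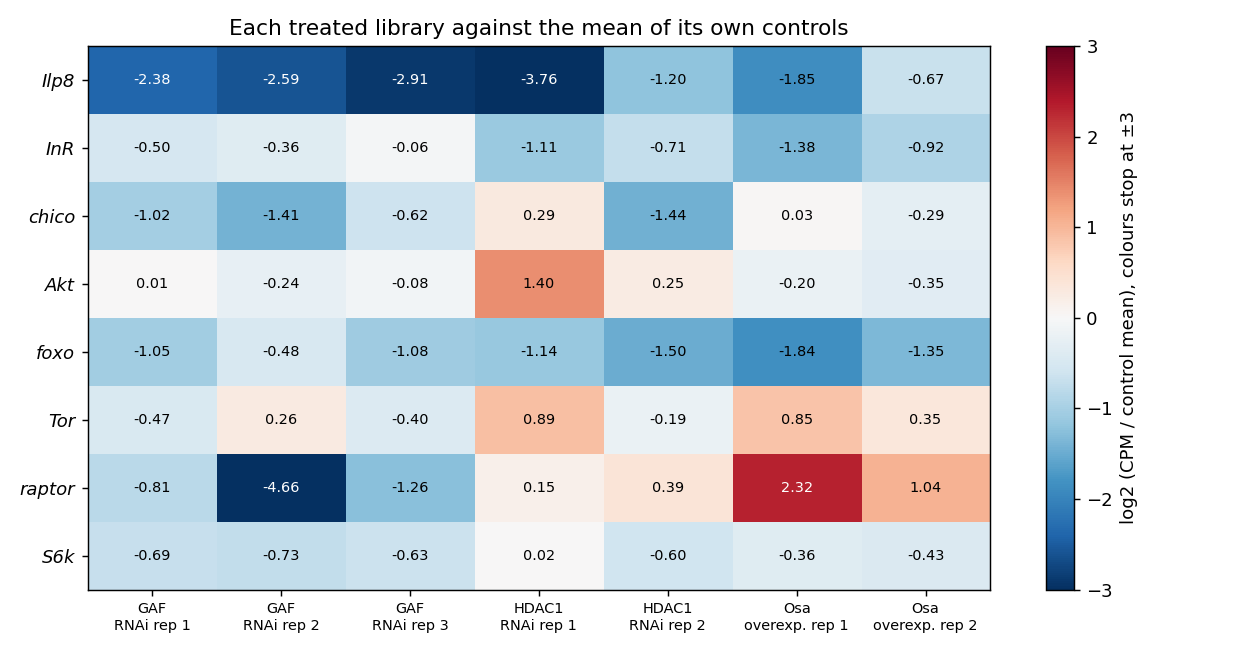
Log2 ratio of each RNAi or overexpression library's CPM to the mean of its own controls, as a colour and a printed value for 8 genes (rows) and 7 libraries (columns); Sesn is left out for its counts of 0. Ilp8 and foxo are below 0 in all 7 libraries, and the 2 HDAC1 RNAi libraries differ in sign for chico, Tor and S6k. S6k is at only 0.016 in the first HDAC1 RNAi library.

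Ilp8 passed the test in GAF RNAi alone, foxo in GAF RNAi and Osa overexpression, and neither in HDAC1 RNAi. For both genes every RNAi or overexpression library lay below every control of its own experiment, which made 2 of the 8 members tested in all 3 experiments, against 5.0% of 8337 genes. InR, chico, foxo, S6k and Ilp8 had negative log2 fold changes in all 3 experiments, 5 of 8 members, against 19.3% of genes, although the signs of chico and S6k turned in the settings named above. One member, foxo, was called lower in both GAF RNAi and Osa overexpression, as were 3.99% of genes.

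Differences between the responses were tested directly, each response taken against its own controls, with all 14 libraries in 1 fit. None of the 9 members was called in any of the 3 differences by edgeR or limma-voom. Over 11181 genes, 3.2% were called for GAF RNAi minus HDAC1 RNAi (1.09% higher and 2.11% lower), 2.87% for GAF RNAi minus Osa overexpression (1.68% higher and 1.19% lower) and 0.00894% for HDAC1 RNAi minus Osa overexpression. At an unadjusted p under 0.05 stood 1, 2 and 1 members, namely Akt (log2 difference -1.21 ± 0.43, SE) for the first, InR (0.81 ± 0.34) and raptor (-3.37 ± 1.15) for the second and Akt (1.37 ± 0.47) for the third. Of all genes, 18.5%, 22.6% and 8.11% had such a p in the 3 differences.

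For chico, called in GAF RNAi alone, the GAF response minus the Osa response was -0.87 ± 0.54 on the log2 scale (SE; edgeR adjusted p = 0.358). For InR, called in Osa overexpression alone, it was 0.81 ± 0.34 (adjusted p = 0.178), and for Ilp8 it was -1.49 ± 0.72 (adjusted p = 0.230). No difference between experiments was thus shown for any of them. Without the second HDAC1 RNAi library, GAF RNAi minus HDAC1 RNAi was -1.52 for chico, -1.76 for Akt, -1.31 for Tor and -0.95 for S6k. In that setting HDAC1 RNAi minus Osa overexpression was 1.92 for Akt and -2.38 for Ilp8. The members listed for that setting are those that passed the threshold in it. Without the first HDAC1 RNAi library instead, GAF RNAi minus HDAC1 RNAi turned to 0.45 for chico. Values of Akt, Tor and S6k in that other fit are not given here. Calls over all genes were far more common with either HDAC1 RNAi library left out, so only the log2 differences are given.

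Around these members, 66 further genes of the pathway were grouped into 6 roles. In GAF RNAi 21 of 57 tested were called, 4 higher and 17 lower, or 36.8% of those tested, beside 28.4% of all genes (12.5% higher and 15.9% lower). Without the first GAF RNAi library 13 were called, 4 higher and 9 lower, and 1593 genes over all, in place of 2573. In Osa overexpression 15 of 58 tested were called, 5 higher and 10 lower, or 25.9%, beside 21.1% of all genes (8.86% higher and 12.2% lower); with library size alone the split was 16 higher and 4 lower. The Osa count rose without the second overexpression library and fell with either control left out, as did the count over all genes. In HDAC1 RNAi 0 of 62 were called by edgeR, DESeq2 or limma-voom, while 8 had an unadjusted p under 0.05, 5 of them higher. Of all 10299 genes tested, 0.0971% were called by edgeR and 1222 (11.9%) had such an unadjusted p, 773 of them higher. The number called rose with either HDAC1 RNAi library left out, as did the number over all genes. With all 14 libraries in 1 fit, sgg, Pi3K92E and srl were no longer called in GAF RNAi (edgeR adjusted p of 0.0509 to 0.137). In that fit dock, Pi3K92E, path, Lamtor5, chrb, AMPKalpha, RpS6, REPTOR-BP and srl were no longer called in Osa overexpression (adjusted p of 0.0635 to 0.340).

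**Figure D4:**
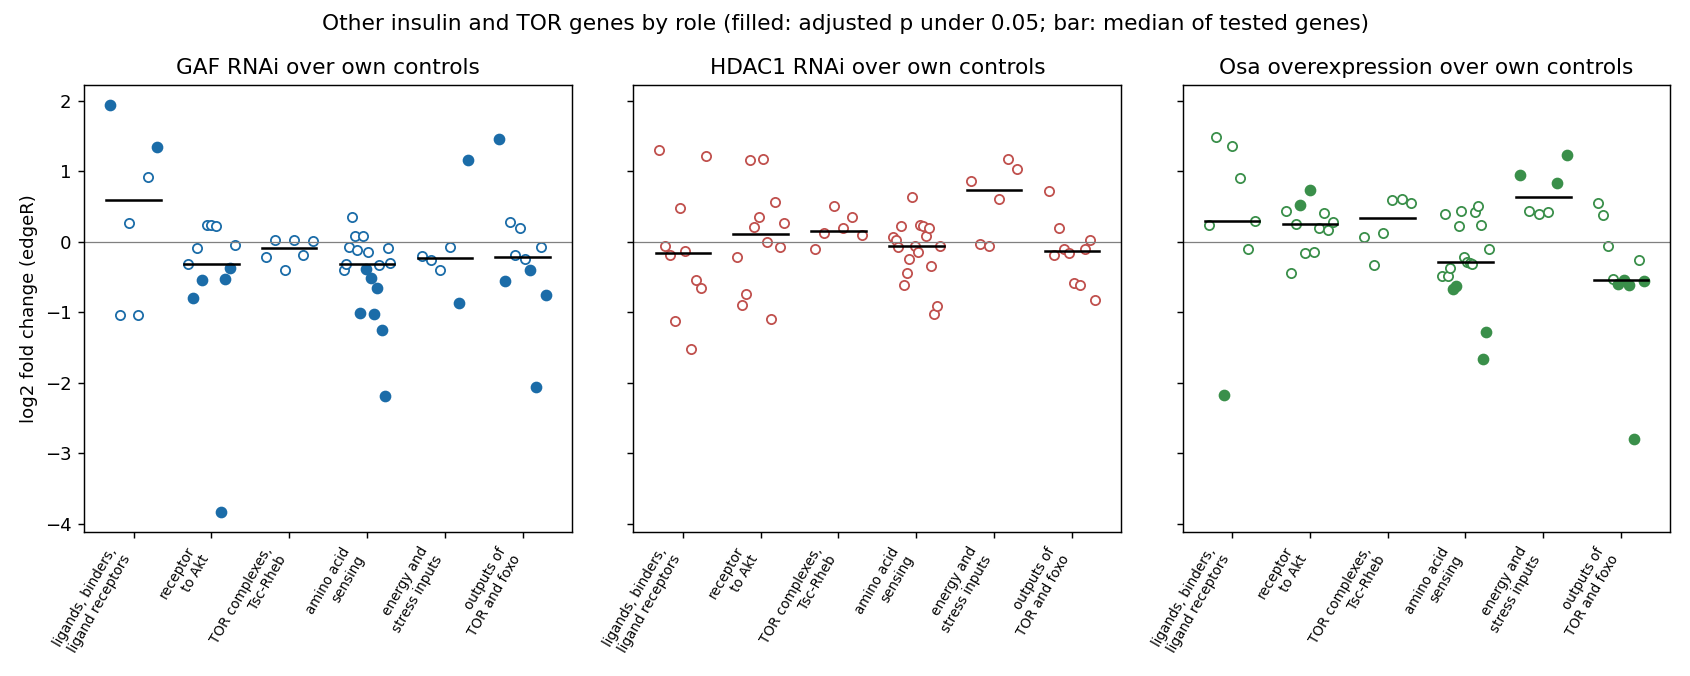
Log2 fold change over own controls (vertical axis) of the other insulin and TOR genes by role for GAF RNAi, HDAC1 RNAi and Osa overexpression, filled where the edgeR adjusted p is under 0.05, with a bar at each role's median. The deepest GAF RNAi point is melt at -3.83, and no HDAC1 RNAi point is filled.

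Among ligands, secreted binders and ligand receptors, 2 of 6 tested genes rose in GAF RNAi and none fell, with a median log2 fold change of 0.59. These are 33.3% of the role, where 12.5% of all genes were called higher and 28.4% in either direction. The 2 were the receptor tyrosine kinase Alk and its ligand jeb, which can sustain neural stem cell growth when food is short. Alk stood at 8.39, 6.06 and 4.91 CPM in GAF RNAi libraries, against 2.17, 1.18 and 1.71 CPM in controls (log2 fold change 1.94 ± 0.33, SE; edgeR adjusted p = 0.00099). For jeb the values were 7.03, 4.67 and 4.69 CPM, against 2.33, 1.74 and 2.37 CPM in controls (log2 fold change 1.35 ± 0.30, SE; edgeR adjusted p = 0.0058). Every GAF RNAi library lay above every control for both genes, and the neuron markers given above rose in the same libraries. In Osa overexpression 1 of 7 was called, or 14.3%, beside 21.1% of all genes. It was Imp-L2, a secreted protein that binds insulin-like peptides, at 7.69 and 21.1 CPM, against 47.7 and 82.5 CPM in controls (log2 fold change -2.18 ± 0.52, SE, edgeR adjusted p = 0.0367). That call was lost with RLE size factors (-2.18) or no filter (-2.17), and without the first overexpression library (-1.62), the first control (-2.52) or the second control (-1.73), and 61.9% of the exonic bases of Imp-L2 are shared on its strand.

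Between the receptor and Akt, 5 of 11 genes were called in GAF RNAi, all lower, with a median of -0.32. These are 45.5% of the role, where 15.9% of all genes were called lower and 28.4% in either direction. The largest fall was that of melt, a membrane-bound protein that recruits foxo and Tsc1. It stood at 1.18, 0.94 and 1.399 CPM in GAF RNAi libraries, against 13.4, 17.0 and 19.5 CPM in controls, groups far apart (log2 fold change -3.83 ± 0.26, SE; edgeR adjusted p = 5.3e-07). Smaller falls were those of sgg, the glycogen synthase kinase that Akt inhibits (log2 fold change -0.53, edgeR adjusted p = 0.0121), and of Pi3K92E, the catalytic subunit of phosphatidylinositol 3-kinase (-0.55, adjusted p = 0.0165). The call of sgg was lost without the second RNAi library (-0.50) or the second control (-0.46), and that of Pi3K92E without the first RNAi library (-0.45) or the third control (-0.48). In Osa overexpression 2 of 11 were called (18.2%), both higher, with a median of 0.25. Of all genes, 8.86% were called higher and 21.1% in either direction. The 2 were dock, an adaptor bound by InR (0.73, edgeR adjusted p = 0.0257), and Pi3K92E (0.53, adjusted p = 0.0420). The calls of dock were lost without the first (0.88) or the second control (0.60), and those of Pi3K92E without the first overexpression library (0.43), the first control (0.60) or the second (0.46).

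Among the 6 further genes of the TOR complexes and the Tsc-Rheb switch, edgeR called 0 in each of the 3 experiments, and 0 had an unadjusted p under 0.05. Of all genes, 28.4% were called in GAF RNAi, 0.0971% in HDAC1 RNAi and 21.1% in Osa overexpression. An unadjusted p under 0.05 was found for 40.1%, 11.9% and 36.8% of all genes. A count of 0 among 6 genes does not show that this role was unaffected. The medians of the 6 genes were -0.088 in GAF RNAi, 0.15 in HDAC1 RNAi and 0.34 in Osa overexpression on the log2 scale.

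Of 18 amino acid sensing genes tested in each experiment, 7 were called in GAF RNAi and 4 in Osa overexpression, all lower. These are 38.9% and 22.2% of the role, where 15.9% and 12.2% of all genes were called lower and 28.4% and 21.1% in either direction. The amino acid transporter mnd fell in both. It stood at 132, 91.5 and 103 CPM in GAF RNAi libraries, against 569, 478 and 442 CPM in controls (log2 fold change -2.19 ± 0.15, SE; edgeR adjusted p = 8.8e-07). In Osa overexpression mnd stood at 68.1 and 119 CPM, against 248 and 343 CPM in controls (log2 fold change -1.66 ± 0.27, SE; edgeR adjusted p = 0.0071). GAF RNAi libraries also had less mio, a subunit of the GATOR2 complex (-1.25, adjusted p = 0.0015), and less Samtor, a sensor of S-adenosylmethionine (-1.03, adjusted p = 0.0029). Osa overexpression libraries had less of the amino acid transporter path, at 434 and 767 CPM, against 1376 and 1526 CPM in controls (-1.27, adjusted p = 0.0105; 0.0787 with all 14 libraries in 1 fit). Lamtor5, a subunit of the lysosomal anchor of TOR complex 1, listed as CG14812, fell by 0.63 on the log2 scale (adjusted p = 0.0219). That call was lost with library size alone (-0.35), without the first control (-0.53) or without the second (-0.72).

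Among 6 energy and stress inputs, 2 were called in GAF RNAi, or 33.3%, beside 28.4% of all genes. These, the paralogs scyl and chrb, are inhibitors of TOR complex 1 induced by hypoxia, and they moved in opposite directions in GAF RNAi. There scyl stood at 637, 453 and 809 CPM in RNAi libraries, against 294, 340.1 and 219 CPM in controls (log2 fold change 1.15 ± 0.22, SE; edgeR adjusted p = 0.0053). Its paralog chrb stood at 99.3, 80.1 and 75.4 CPM in GAF RNAi libraries, against 137, 181 and 149 CPM in controls (log2 fold change -0.87 ± 0.15, SE; edgeR adjusted p = 0.00087). In Osa overexpression 3 of 6 were called (50%), all higher, where 8.86% of all genes were called higher and 21.1% in either direction. They were scyl (1.23, edgeR adjusted p = 0.0022), AMPKalpha, the catalytic subunit of the energy sensor AMPK (0.95, adjusted p = 0.0130), and chrb (0.84, adjusted p = 0.0093). The call of AMPKalpha was lost without the first control (0.88) and that of chrb without the second (0.66). In HDAC1 RNAi scyl stood at 466 and 350.3 CPM, against 230 and 170.3 CPM in controls, and chrb at 415 and 251 CPM, against 170 and 125 CPM. Neither difference passed the test (edgeR adjusted p = 0.393 for scyl and 0.341 for chrb). Without the first HDAC1 RNAi library the log2 fold changes were 0.83 for scyl and 0.79 for chrb. Without the second they were 1.23 for scyl and 1.5015 for chrb, and a lone library gives no spread of its own.

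Among 10 outputs of TOR and foxo, 5 were called in GAF RNAi, 1 higher and 4 lower, and 5 in Osa overexpression, all lower. These are 50% of the role in each, where 28.4% and 21.1% of all genes were called in either direction. Of all genes, 15.9% and 12.2% were called lower. Thor, the translation repressor that TOR complex 1 inhibits and foxo activates, stood at 119, 127 and 252 CPM in GAF RNAi libraries, against 932, 580 and 567 CPM in controls (log2 fold change -2.06 ± 0.39, SE, edgeR adjusted p = 0.0138). That call was lost with a replicate block (-2.11, edgeR adjusted p = 0.0556). In Osa overexpression Thor stood at 29.5 and 69.7 CPM, against 251 and 441 CPM in controls (log2 fold change -2.80 ± 0.54, SE, edgeR adjusted p = 0.0311). How this Osa call of Thor depends on the settings is not given here. Atg1, the kinase that starts autophagy, rose in GAF RNAi, at 44.6, 51.9 and 39.6 CPM, against 16.7, 16.7 and 16.1 CPM in controls (log2 fold change 1.46 ± 0.16, SE; edgeR adjusted p = 3.0e-05). The coactivator srl fell in both experiments, by 0.75 in GAF RNAi (adjusted p = 0.0011) and by 0.56 in Osa overexpression (adjusted p = 0.0202) on the log2 scale. In Osa overexpression RpS6 (-0.62, adjusted p = 0.0150) and the TOR-repressed transcription factor partner REPTOR-BP (-0.54, adjusted p = 0.0197) fell too. The Osa calls of srl, RpS6 and REPTOR-BP were lost with library size alone (-0.29, -0.35 and -0.26) and without either control, at -0.62 and -0.51 for srl, -0.70 and -0.54 for RpS6 and -0.57 and -0.51 for REPTOR-BP.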

How the data were processed

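Per the labels, polyA RNA of 1000 to 2000 type II neural stem cells per library was amplified with Discover-sc WTA Kit V2 and made into libraries with TruePrep DNA Library Prep Kit V2. The authors deposited raw counts per gene. They name featureCounts 2.0.3, HISAT2 2.2.1, Trim Galore 0.6.10 and SAMtools 1.6 with dm6, per the submitters' processing notes, and the sources used here give no other setting. Even values made up 61.5% to 70.4% of the counts of 1 to 49 in a library, so that reads may not be independent molecules.

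Libraries were grouped by title. Each experiment was fitted on its own with edgeR 4.0.16 (R 4.3.3; TMM, filterByExpr at min.count 10 and min.total.count 15, quasi-likelihood test, Benjamini-Hochberg over all genes tested, threshold 0.05). Differences of responses came from 1 fit of 6 groups. CPM use TMM library sizes within an experiment, and exonic lengths and overlaps come from the BDGP6 annotation. Of 67 listed pathway genes, 66 matched a row. Members and lists were chosen with earlier results of these data known. From each role, up to 3 called genes with the smallest p were named per comparison; Thor in Osa overexpression, the values of scyl, chrb and melt where not called, Lgr3, Ilp6 and nrv2 were added after their values were seen. Alternatives were RLE size factors, library size alone, no filter, DESeq2 1.42.0, limma-voom (limma 3.58.1), all libraries in 1 fit, a replicate block, and each library left out. For the differences, the block and the left-out libraries were chosen after seeing the data. Tested on simulated data with 2-fold and 4-fold changes, edgeR called 65% and 80% of them in the GAF design and 62% and 80% in the Osa design. It also called 9 unchanged genes in the GAF design, 15 in the Osa design and 5 in the HDAC1 design.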

Additional observations from a re-analysis of the deposited data

Results flagged for a closer look

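Between responses to different perturbations, tested in 1 fit of all 14 libraries by edgeR, 5 differences passed an adjusted p of 0.05 among the other insulin and TOR genes. They are 3 of 62 genes tested (4.84%) in GAF RNAi minus HDAC1 RNAi, beside 3.2% of all genes, and 2 of 62 (3.23%) in GAF RNAi minus Osa overexpression, beside 2.87% of all genes. The GAF RNAi response of melt was lower than the HDAC1 RNAi response by a log2 difference of -2.85 ± 0.45 (SE; adjusted p = 0.0023) and lower than the Osa overexpression response by -4.04 ± 0.46 (SE; adjusted p = 0.00025). In HDAC1 RNAi libraries melt stood at 4.36 and 5.42 CPM, against 11.5 and 9.36 CPM in controls, and in Osa overexpression libraries at 6.25 and 8.52 CPM, against 7.34 and 5.54 CPM. For chrb the GAF RNAi response was lower than that of HDAC1 RNAi by -2.20 ± 0.38 (SE; adjusted p = 0.0040) and than that of Osa overexpression by -1.72 ± 0.37 (SE; adjusted p = 0.0227). Without the first HDAC1 RNAi library the difference from HDAC1 RNAi was -2.89 for melt and -1.65 for chrb. Without the second it was -2.82 for melt and -2.62 for chrb. The difference of chrb from Osa overexpression was lost without GAF RNAi replicate 2 (-1.68) or 3 (-1.64), GAF control 2 (-1.60), Osa overexpression replicate 1 (-1.63), or Osa control 1 (-1.94) or 2 (-1.53). For sgg the difference between GAF RNAi and HDAC1 RNAi was -1.24 ± 0.31 (SE; adjusted p = 0.0409). That call was lost in 7 of the 10 fits that leave out a library, between -1.07 and -1.45, with RLE size factors (-1.10) and with a replicate block (-1.25).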

How the results depend on the processing

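With all 14 libraries in 1 fit, 2 members, 12 genes of the wider list and 1451 genes in all were called in GAF RNAi, 4 of the wider list and 345 genes in HDAC1 RNAi, and 4 of the wider list and 354 genes in Osa overexpression. In HDAC1 RNAi, 10 genes in all were called; library size alone gave 0, limma-voom 2, DESeq2 294 and no filter 309, and with no filter 1 member (Ilp8, -1.95, adjusted p = 0.0240) was called. In Osa overexpression 4 members were called with library size alone, 4 with DESeq2 (S6k and Ilp8 added) and 5 with no filter (Tor, raptor and Ilp8 added). Calls over all genes also rose in these settings, to 2501, 2449 and 2644 in place of 1929. Signs turned with library size alone for chico (0.067) and S6k (0.062) in HDAC1 RNAi and for chico (0.16) and Akt (0.0031) in Osa overexpression. With RLE size factors 4 of the wider list were called in GAF RNAi minus Osa overexpression, and with library size alone the genes called in that difference split into 104 higher and 140 lower in place of 188 and 133. The cause of these changes was not tested.

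Replicate numbers are shared between groups, and the labels do not say whether they mark a shared batch. Correlations of same-numbered deviations were 0.0079, -0.00033 and -0.14 in the GAF experiment, where those of differing numbers ran from -0.10 to 0.10. They were 0.14 in the HDAC1 experiment and 0.015 in the Osa experiment. With 2 libraries per group, same and differing numbers give equal and opposite values, so these cannot show whether libraries were paired. With a replicate block 1 member (Ilp8, -2.44, adjusted p = 0.0081) and 241 genes in all were called in HDAC1 RNAi, Ilp8 was also called in Osa overexpression (-1.22), and Thor was no longer called in GAF RNAi (-2.11).

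With 1 library left out at a time, GAF RNAi kept 4 members called in each fit, with 13 to 25 of the wider list and 1593 to 3389 genes in all. HDAC1 RNAi gave 0 to 5 members, 0 to 21 of the wider list and 36 to 3621 genes. Osa overexpression gave 2 to 6 members, 4 to 29 of the wider list and 498 to 3535 genes. GAF RNAi minus HDAC1 RNAi gave 0 to 4 members, 2 to 22 of the wider list and 136 to 2772 genes; GAF RNAi minus Osa overexpression gave 0 members, 1 to 4 and 110 to 449; HDAC1 RNAi minus Osa overexpression gave 0 to 2, 0 to 7 and 1 to 850.0. Signs turned in HDAC1 RNAi for S6k (log2 fold changes of -0.57 to 0.025), Tor (-0.17 to 0.90) and chico (-1.42 to 0.30), and in Osa overexpression for Sesn (-1.30 to 0.12) and chico (-0.29 to 0.079). They also turned in GAF RNAi minus HDAC1 RNAi for Ilp8 (-1.43 to 0.89), chico (-1.52 to 0.45) and foxo (-0.17 to 0.68), and in HDAC1 RNAi minus Osa overexpression for S6k (-0.20 to 0.65) and chico (-1.32 to 0.65). Where 1 library was left in a group, it was assumed to vary like the other group. Depth limits raptor and Sesn, with at most 131 and 23 counts in a library.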

Other observations

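Ilp2, Ilp3 and Ilp5, the peptides of the brain's insulin-producing neurons, summed to at most 1.27 CPM in any GAF RNAi library and 0.12 CPM in any GAF control, and to at most 0.28 CPM in any Osa overexpression library and 0.21 CPM in any Osa control. In the HDAC1 experiment they summed to 51.6 and 275 CPM in RNAi libraries, against 387 and 44.7 CPM in controls. Ilp3 stood at 12.8 and 191 CPM in HDAC1 RNAi libraries, against 192 and 39.7 CPM in controls, and edgeR called none of the 3. The groups overlap, and replicates of 1 group differ more than the groups do. Ilp6 stayed at or below 4.95 CPM in all 14 libraries, and Ilp1, Ilp4 and Ilp7 had too few counts to be tested in any experiment.

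For the 5 members called in at least 1 experiment, the genes with the most similar pattern were sought among 6720 genes with a mean of at least 5 CPM, by the root mean square distance of log2 (CPM + 0.5) from the own controls over 14 libraries. The libraries are shared by all genes, so this is a description. Nearest to S6k were eIF3d1, a translation initiation factor subunit (0.098), and CG33230 (0.11). Nearest to InR were GILT1 (0.14) and pyr, a fibroblast growth factor ligand (0.17), and nearest to chico were S6KL (0.159) and CG12576 (0.160). Nearest to foxo were tai, a coactivator of the ecdysone receptor (0.25), and Oatp74D, an ecdysone importer (0.27). Nearest to Ilp8 were mnd (0.56) and CG4250 (0.57), with log2 fold changes of -2.19 and -2.79 in GAF RNAi. These distances stand beside a root mean square of the member's own values of 0.38 for S6k, 0.60 for InR, 0.61 for chico, 0.88 for foxo and 1.57 for Ilp8.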
